A study of Mus musculus with 36 samples.

Results

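Collagens, other matrix proteins, the enzymes that cross-link or cut them, and genes of the contractile apparatus were followed in mouse cells lacking the splicing factor Zrsr2. The set holds 37 genes chosen by name for what their proteins do, and the tables hold 31890 genes with at least 1 listed intron. The level of a gene was the sum of the reads spliced across its listed introns, per 1000000 spliced reads of the library (CPM), and the retention of an intron was the percent the authors give for it. For 36 of the 37 genes, 904 listed introns matched GENCODE M21, and none of these introns was shared with another gene. Tagln had no listed intron, so it has no value.

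The cells came from wild-type (WT) and Zrsr2-deficient (KO) C57BL/6 mice, and nothing in the labels gives the promoter or cell type in which the gene was deleted. Embryonic fibroblasts (MEF) came from 3 male WT and 3 male KO embryos, numbered 4 to 6. Common myeloid (CMP), granulocyte-monocyte (GMP) and megakaryocyte-erythroid (MEP) progenitors were sorted from 3 WT and 3 KO male littermates, numbered 1 to 3. Bone marrow Lin-Kit+ cells of either genotype were cultured and transduced with a control hairpin or with 1 of 2 hairpins against Zrsr1, a close relative of Zrsr2, called sh1 and sh10, in 2 experiments. The labels do not say whether the Lin-Kit+ experiments drew on separate mice, so tests there may reflect only technical spread among libraries. The fibroblast and progenitor libraries were made with a TruSeq kit and the Lin-Kit+ libraries with a NEBNext Ultra kit.

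Fibroblasts secrete the fibrillar collagens as soluble precursors that are folded with the help of chaperones, trimmed, assembled into fibrils and joined by lysyl oxidases. Glycoproteins such as fibronectin and small proteoglycans such as decorin organise the fibrils, and matrix metalloproteinases and their tissue inhibitors set how fast the network is turned over. Cultured fibroblasts can also make smooth muscle actin, a component of contractile fibres. Blood progenitors are suspended cells that assemble little matrix of their own. ZRSR2 recognises the 3′ end of the rare minor-class introns, and the introns of this set were not sorted by class.

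The libraries held 43514139 to 61124920 spliced reads in MEF, 44083233 to 84832431 in the progenitors and 30481450 to 43345548 in the Lin-Kit+ cells. Zrsr2 itself, the deleted gene, had 1134 to 1521 spliced reads in the 3 WT MEF libraries and 0 to 20 in the 3 KO MEF libraries, and in every other group at most 57 reads in a KO library against at least 725 in a WT library. The knockdown of Zrsr1 could not be checked, because none of the listed introns belongs to that gene. The matrix and contractile genes took 11.4 to 16.0% of all spliced reads in MEF, 0.00718 to 0.0207% in the progenitors and 0.141 to 0.376% in the Lin-Kit+ cells. Pdgfra, a receptor that defines fibroblasts, stood at 643 to 816 CPM in the MEF libraries and at or below 0.289 CPM in every other library.

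In the fibroblasts no gene of the set passed the test for a difference between KO and WT, although most had somewhat higher values in the KO libraries. With edgeR's quasi-likelihood test and Benjamini-Hochberg adjustment, 0 of the 36 genes were called, as were 0 of all 16735 genes tested (0.0% called). At an unadjusted p under 0.05 the test gave 2 of the 36 genes and 265 of all genes, or 1.58%, while DESeq2 called 12 genes of which 0 were in the set. The log2 change was positive for 31 of the 36 genes, with a median of 0.25, whereas 47.1% of all genes tested had a positive change and their median was -0.01. Leaving out any 1 of the 6 libraries left 25 to 32 positive genes. The genes were measured in the same 6 libraries, so this count carries no test. Every adjusted p of the set in MEF was 1.0 to the digits given, and it is not repeated below.

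Among the collagens, the most abundant were those of type I and type III, the fibril-formers of skin and bone. Per intron, which allows genes of different length to be compared, Col1a1 stood at 489.6 ± 41.4 CPM and Col1a2 at 452 ± 49.4 CPM in WT MEF (SD, n = 3), ranks 1 and 2 of the 36 genes, and their levels did not differ beyond that spread. Sparc and Bgn followed at 429.8 ± 28.3 and 419 ± 71.5 CPM per intron, again within the spread of their neighbours. At the low end of this order, Eln had 9.08 ± 1.196 and Cnn1 7.86 ± 2.098 CPM per intron.

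Col6a3 (chr1:90765923-90843971 in mm10, the coordinates used throughout), a chain of the beaded-filament collagen VI, read 1611, 1745 and 1213 CPM in KO libraries 4, 5 and 6 and 1006, 1092 and 1127 CPM in WT libraries 4, 5 and 6. It was the only gene of the 36 whose KO libraries all lay above all WT libraries, a pattern seen in 2.32% of all genes tested, and no gene of the set had all KO libraries below all WT libraries (3.12% of all genes). Its log2 change was 0.52 (SE 0.15) in the edgeR fit, and it stayed between 0.41 and 0.66 when any 1 library was left out. The partner chain Col6a2 read 1925, 2181 and 1337 CPM in the KO and 1711, 1349 and 1305 CPM in the WT libraries, and Col6a1 had a log2 change of 0.25 (SE 0.16) in the same edgeR fit. KO libraries 4 and 5 were above the highest WT library for both chains, but KO 6 lay among the WT values for Col6a2 and level with the lowest WT library for Col6a1.

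Col1a1, one of the chains of collagen I, read 31377, 34376 and 24018 CPM in the KO and 24505, 26381 and 22157 CPM in the WT libraries, a log2 change of 0.31 (SE 0.18) by edgeR. Col1a2, which encodes its partner, read 29255, 31199 and 22139 CPM in the KO and 21484, 25179 and 20694 CPM in the WT libraries, with a log2 change of 0.31 (SE 0.18) in that fit. In both genes KO 4 and KO 5 were the highest and KO 6 lay within the WT range, so the groups overlapped. Col5a1, a chain of the collagen V that starts fibril assembly, read 5042, 6001 and 4362 CPM in the KO and 4375, 4681 and 4077 CPM in the WT libraries, with the same arrangement. Col12a1, a collagen that binds to fibril surfaces, read 6947, 6349.7 and 4642 CPM in the KO and 4843, 5594 and 3618 CPM in the WT libraries, and again KO 4 and KO 5 were highest.

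Of the remaining collagens, Col3a1, the collagen III chain, had a log2 change of 0.27 (SE 0.18) in the edgeR fit. Col4a2 and Col4a1, chains of the basement membrane collagen IV, had 0.14 and 0.11, Col8a1, a short-chain network collagen, 0.12 and Col5a2, the other collagen V chain, 0.03. All 12 collagen genes of the set thus had positive values, and none passed the test.

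Eln (chr5:134702593-134747323), which encodes elastin, the rubber-like core of elastic fibres, had the largest difference of the set. It read 801, 1613 and 312 CPM in KO libraries 4, 5 and 6 against 354, 333 and 280.2 CPM in WT libraries 4, 5 and 6. KO 5 and KO 4 were far above the WT range and KO 6 was inside it. The log2 change was 1.51 (SE 0.53) in the edgeR fit, and it was 0.80 without KO 5 and 1.92 without KO 6. Fbn1, the fibrillin of the microfibrils on which elastin is laid down, read 1486, 1692 and 1593 CPM in the KO and 1179, 1273 and 1528 CPM in the WT libraries, a log2 change of 0.28 (SE 0.13) by edgeR. Here WT 6 lay among the KO values.

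**Figure D1:**
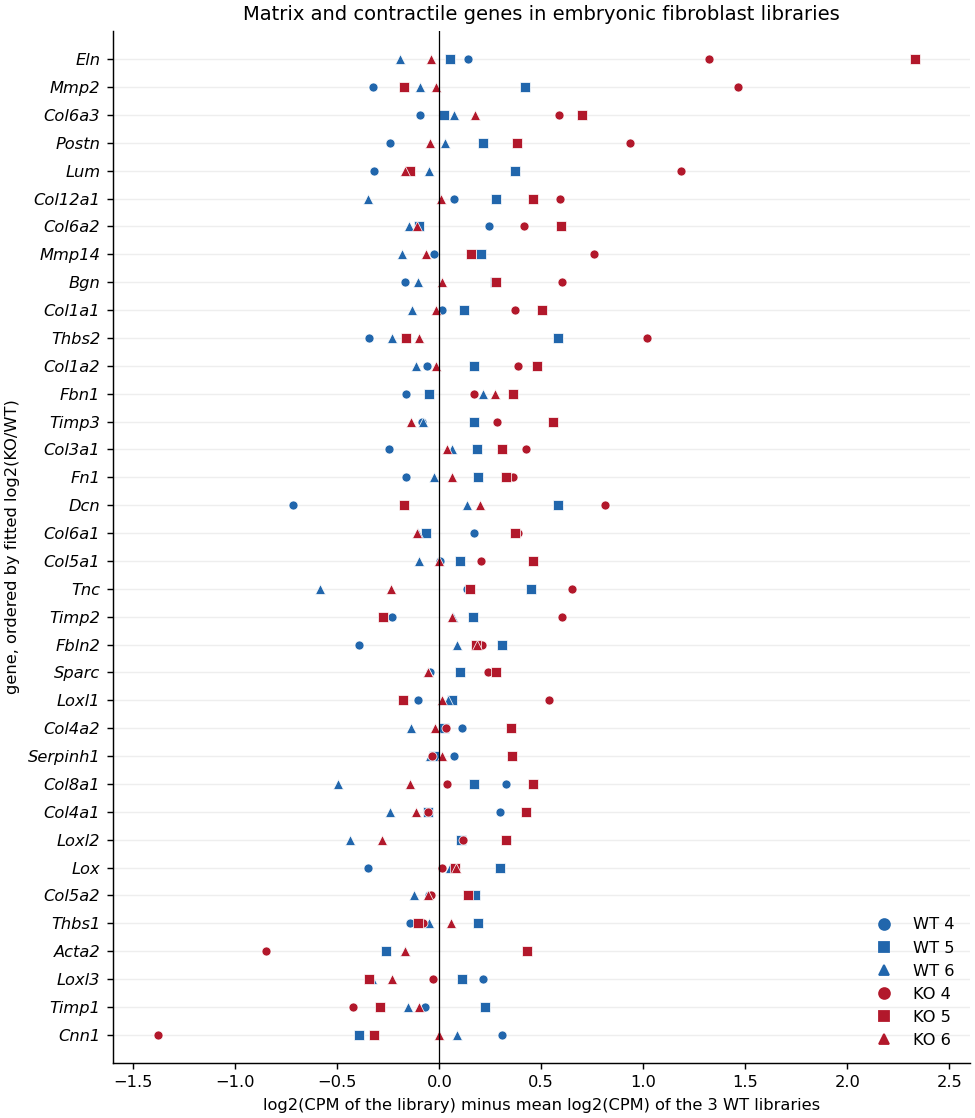
Each point is 1 fibroblast library, plotted as log2 CPM minus the mean log2 CPM of the 3 WT libraries, for 36 genes ordered by the fitted change. KO libraries 4 and 5 lie to the right for most genes, KO 6 stays near the WT libraries, and the groups separate only for Col6a3.

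Among the adhesive and fibril-organising glycoproteins, Fn1, fibronectin, read 6200.1, 6062 and 5039 CPM in the KO and 4315, 5509 and 4735 CPM in the WT libraries, a log2 change of 0.26 (SE 0.15) by edgeR. Postn, periostin, a matricellular protein of healing and stretched tissue, read 9264, 6306 and 4691 CPM in the KO and 4084, 5617 and 4936 CPM in the WT libraries. For both genes KO 4 was the highest library and KO 6 lay among the WT values. Bgn, the small proteoglycan biglycan, read 4585, 3668 and 3049 CPM in the KO and 2692, 3651 and 2815 CPM in the WT libraries, a log2 change of 0.32 (SE 0.20) by edgeR. KO 4 was again highest, and KO 5 and WT 5 were nearly level.

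A second arrangement was carried by KO 4 alone. Mmp2, gelatinase A, read 2588, 831 and 927 CPM in KO libraries 4, 5 and 6 and 749, 1254 and 878 CPM in the WT libraries. Dcn, decorin, a collagen-binding proteoglycan, read 1848, 933 and 1209 CPM in the KO and 639.7, 1573 and 1155 CPM in the WT libraries, and Lum, its relative lumican, 209, 83.4 and 81.9 CPM in the KO and 73.7, 119 and 88.9 CPM in the WT libraries. Thbs2, an antiangiogenic thrombospondin, read 3698, 1629 and 1704 CPM in the KO and 1434, 2727 and 1551 CPM in the WT libraries. In these 4 genes KO 4 was the highest library, WT 5 the second and WT 4 the lowest, so the genotypes overlapped. Their log2 changes were 0.60 (SE 0.46) for Mmp2, 0.25 (SE 0.38) for Dcn, 0.42 (SE 0.40) for Lum and 0.31 (SE 0.40) for Thbs2 in the edgeR fit.

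The contractile genes went the other way in KO 4. Acta2, smooth muscle actin, read 991, 2406 and 1589 CPM in KO libraries 4, 5 and 6 and 2404, 1489 and 1585 CPM in the WT libraries. Cnn1, calponin, an actin-binding protein of smooth muscle, read 15.99, 33.3 and 41.5 CPM in the KO and 51.5, 31.7 and 44.2 CPM in the WT libraries. KO 4 was the lowest of the 6 libraries for both genes, and the fitted log2 changes were -0.11 (SE 0.34) for Acta2 and -0.47 (SE 0.35) for Cnn1 in the edgeR fit. Among 25 other genes of the actin and serum response factor programme, 19 had negative and 6 positive changes, with a median of -0.07, and 0 were called, with 0 at an unadjusted edgeR p under 0.05.

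The cross-linking enzymes had small differences. Lox, the founding lysyl oxidase, had a log2 change of 0.05, Loxl2 0.06, Loxl1 0.17 and Loxl3 -0.20 in the edgeR fit. Serpinh1, the collagen chaperone HSP47, had 0.14 (SE 0.13). Of the inhibitors of metalloproteinases, Timp1 read 173, 190.3 and 217 CPM in the KO and 221, 272 and 209 CPM in the WT libraries, with WT 5 highest and KO 4 lowest. It was 1 of the 5 genes of the set with a negative log2 change, beside Cnn1, Loxl3, Acta2 and Thbs1. Timp2, Timp3 and the membrane metalloproteinase Mmp14 had log2 changes of 0.18, 0.27 and 0.33 in the edgeR fit, and Timp1 -0.26 (SE 0.14). The remaining glycoproteins had log2 changes of 0.18 for Sparc, osteonectin, 0.18 for Fbln2, fibulin 2, 0.19 for Tnc, tenascin C, and -0.03 for Thbs1, thrombospondin 1.

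The extremes lay in a few libraries. KO 4 and KO 5 each held the highest value of 14 of the 36 genes, WT 5 of 5 and WT 4 of 3, and KO 6 and WT 6 of 0. The lowest value lay in WT 6 for 15 genes, in WT 4 for 13, in KO 4 and KO 5 for 3 each, in KO 6 for 2 and in WT 5 for 0. The libraries also differed in macrophage RNA. The summed level of 8 macrophage markers (Csf1r, Adgre1, Cd68, Lyz2, C1qa, C1qb, C1qc and Mrc1, all above 0 in all 6 libraries) was 2184, 2239.9 and 8120.1 CPM in KO libraries 4, 5 and 6 and 1101, 5378 and 10346 CPM in WT libraries 4, 5 and 6. The libraries numbered 6 had the highest marker sums of their genotype and the highest value of no gene of the set, but WT 4, with the lowest marker sum, held the lowest value of 13 genes. All 8 markers had negative log2 changes, with a median of -0.40, and none was called. In bulk RNA, fewer cells of a type and less RNA per cell cannot be told apart.

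With the macrophage sum as a covariate, 0 genes of the set were called and 31 of 36 changes were positive with a median of 0.23 (0.0% of all genes called, with 3 of the 36 and 2.08% of all genes at an unadjusted edgeR p under 0.05). Without both libraries numbered 6, 0 were called and 31 were positive with a median of 0.33 (0.00594% of all genes called, with 4 of the 36 and 2.99% of all genes at an unadjusted edgeR p under 0.05). Leaving out KO 6 alone put 10 of the 36 and 4.42% of all genes at an unadjusted edgeR p under 0.05. Eln had a log2 change of 1.28 with the covariate and 1.85 without the libraries numbered 6, and Col6a3 0.51 and 0.71. The difference between the genotype effect in MEF and in the progenitors was called for 0 of the 36 genes by edgeR and by DESeq2. At an unadjusted edgeR p under 0.05 there were 0 of the 36 and 2.67% of all genes (background 0 of 19544 genes called by edgeR, 0.0%). Only 2 genes of the set in WT CMP, 1 in WT GMP and 2 in WT MEP averaged at least 10 CPM. For the others this test had little reach, so it does not show that the effects were alike.

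**Figure D2:**
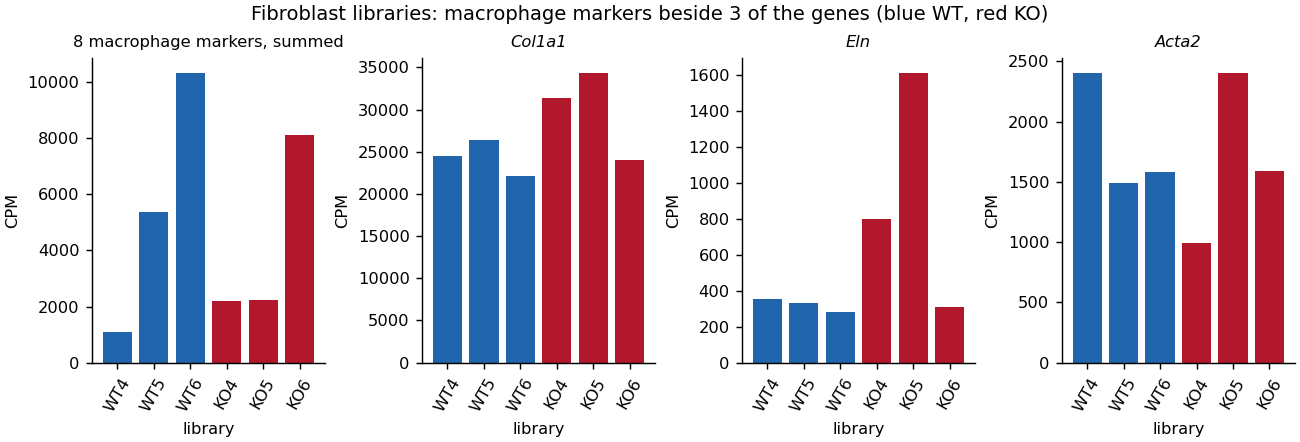
Bars give CPM in each of the 6 fibroblast libraries for the sum of 8 macrophage markers and for Col1a1, Eln and Acta2. The marker sum runs from 1101 CPM in WT 4 to 10346 CPM in WT 6, Eln is high in KO 4 and KO 5 only, and Acta2 is lowest in KO 4.

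Matrix genes outside the set also had mostly positive changes in MEF. Of 27 other matrix proteins, 23 had positive changes with a median of 0.24 and 0 were called. Hspg2, the basement membrane proteoglycan perlecan, stood at 1623 ± 144 CPM in KO against 1324 ± 57.6 CPM in WT (SD, n = 3). Of 15 other collagens 10 were positive, with Col14a1, a fibril-associated collagen, at 118 ± 68.4 against 57.5 ± 11.1 CPM. Collagen-modifying enzymes were positive in 14 of 19, with a median of 0.10, proteases in 12 of 16 and matrix receptors in 11 of 20. In the TGF-beta pathway, a known inducer of matrix genes, 8 of 19 were positive and the median was -0.04. Its target Tgfbi was 218 ± 5.48 CPM in KO and 262 ± 15.7 CPM in WT. None of these genes was called by edgeR, and Hspg2, Col14a1 and Tgfbi were the 3 at an unadjusted p under 0.05.

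Splicing of the set was next read from the introns. In MEF, 515 introns of 35 of the genes held enough exon-intron reads for a test of retention. With edgeR's test of intron against spliced reads, 0 of the 515 were called, as were 0 of 32197 introns in all (0.0% called). At an unadjusted p under 0.05 there were 39 of the 515 and 1359 of all introns, which is 4.22%. On simulated data this test made false calls above its nominal rate, so counts at an unadjusted p may be too high. Retention was lower in KO for 337 of the 515 introns (65.4%, median log2 change -0.08) and for 53.6% of all introns (median -0.03). Without WT 4 it was lower in KO for 303 of 540 introns of the set (56.1%, median -0.03). There were then 15 of these 540 and 1465 of 36386 introns in all at an unadjusted edgeR p under 0.05. Leaving out any other library left 61.9 to 69.4% lower in KO. Summed over the main transcripts, exon-intron reads made up 0.512, 0.499 and 0.544% in KO libraries 4, 5 and 6 and 0.589, 0.539 and 0.552% in WT libraries 4, 5 and 6. KO 6 and WT 5 overlapped. The introns of the set were well spliced, with a median WT retention of 0.828% and 293 of 515 under 1%.

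The intron with the smallest unadjusted p was intron 23 of Col1a2 (chr6:4521495-4522441), at 0.00592 ± 0.00275% in KO and 0.0283 ± 0.00492% in WT (SD, n = 3), which rested on 9 and 39 exon-intron reads. Its log2 change was -2.18 (adjusted p = 0.999, edgeR). Intron 64 of Col5a1 (chr2:28029036-28032590) followed at 3.399 ± 1.48% in KO and 5.76 ± 1.201% in WT. Intron 18 of Postn (chr3:54383478-54384483) stood at 0.106 ± 0.0255% and 0.256 ± 0.0707%. Intron 9 of Tnc (chr4:64000971-64006245) stood at 0.193 ± 0.0327% and 0.467 ± 0.0785%. These 4 introns had lower means in KO, and introns are numbered along the transcript with the most listed introns. Loxl3 had the highest retention per gene, at 2.54 ± 0.1196% in KO and 3.12 ± 0.4201% in WT. Junction use within a gene was called for 0 of 903 introns of the set, with 0 at an unadjusted p under 0.05, and for 0 of 128560 introns in all (0.0%).

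Several matrix genes carry exons that fibroblasts include or skip, and the listed introns measured 7 of them. The sequences of 5 are shown because they are the best-measured variable exons of at most 300 bases with inclusion above 10%, resting on 2690 to 16179 skipping reads per library. They are the EIIIA and EIIIB exons of fibronectin (Fn1 exons 33 and 25 of the main transcript, minus strand, chr1:71603660-71603929 and chr1:71613763-71614035), each of which encodes a fibronectin type III repeat, exons 17 and 21 of Postn (plus strand, chr3:54380412-54380492 and chr3:54385671-54385754) in its variable C-terminal region, and exon 9 of Fbln2, fibulin 2 (plus strand, chr6:91259630-91259770). All lengths, 270, 273, 81, 84 and 141 bases, are whole numbers of codons. The sequences are from GENCODE M21 transcripts on GRCm38, 5′ to 3′, with the exon in lower case and the 12 flanking bases of the neighbouring exons, which join when it is skipped, in capitals.
Fn1 exon 33 (EIIIA): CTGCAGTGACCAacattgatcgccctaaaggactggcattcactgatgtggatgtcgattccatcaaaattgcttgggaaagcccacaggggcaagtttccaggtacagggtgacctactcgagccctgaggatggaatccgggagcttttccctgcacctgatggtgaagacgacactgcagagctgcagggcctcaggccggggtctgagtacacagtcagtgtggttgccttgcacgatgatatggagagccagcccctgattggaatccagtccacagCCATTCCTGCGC
Fn1 exon 25 (EIIIB): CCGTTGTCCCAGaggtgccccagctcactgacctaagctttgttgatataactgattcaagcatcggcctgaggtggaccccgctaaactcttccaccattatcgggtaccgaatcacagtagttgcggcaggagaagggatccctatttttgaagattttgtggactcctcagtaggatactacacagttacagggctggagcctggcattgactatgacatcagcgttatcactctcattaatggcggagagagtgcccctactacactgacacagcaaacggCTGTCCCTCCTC
Postn exon 17: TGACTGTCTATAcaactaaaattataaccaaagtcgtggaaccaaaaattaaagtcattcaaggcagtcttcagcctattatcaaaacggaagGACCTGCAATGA
Postn exon 21: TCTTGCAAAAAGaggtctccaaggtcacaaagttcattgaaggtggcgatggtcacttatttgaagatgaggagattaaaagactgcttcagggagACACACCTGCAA
Fbln2 exon 9: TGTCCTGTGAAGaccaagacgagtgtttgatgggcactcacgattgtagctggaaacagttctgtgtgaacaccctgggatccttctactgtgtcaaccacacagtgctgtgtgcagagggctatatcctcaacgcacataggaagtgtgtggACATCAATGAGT

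Inclusion is the share of reads over the flanking introns that did not skip the exon. EIIIA was included at 26.8, 42.7 and 34.3% in KO libraries 4, 5 and 6 and 38.1, 30.7 and 34.7% in WT libraries 4, 5 and 6. EIIIB was included at 29.03, 42.3 and 29.96% in the KO and 32.5, 29.7 and 31.1% in the WT libraries. KO 5 was the highest and KO 4 the lowest library for both exons, on either side of the WT range. The means differed by 0.137 and 2.66 percentage points (exact two-sided permutation test over 3 against 3 libraries, p = 1.0 and 0.9, where the smallest possible p is 0.1).

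Exon 17 of Postn was included at 21.2, 24.9 and 15.3% in the KO and 18.5, 16.3 and 15.5% in the WT libraries, and exon 21 at 13.6, 18.3 and 13.03% in the KO and 19.6, 12.6 and 13.4% in the WT libraries. Exon 9 of Fbln2 had the widest spread, at 65.5, 36.5 and 53.3% in KO libraries 4, 5 and 6 and 45.5, 53.8 and 52.1% in the WT libraries. It ran opposite to EIIIA, with KO 4 highest and KO 5 lowest. The 600-base exon 6 of Col6a3 was included at 34.7, 51.4 and 36.6% in the KO and 47.9, 35.7 and 40.4% in the WT libraries, and exon 14 of Tnc, tenascin C, at 3.61, 3.56 and 4.95% in the KO and 6.74, 4.37 and 5.12% in the WT libraries. Exact permutation p-values for the 7 exons lay between 0.2 and 1.0, and the groups overlapped for each exon. The 2 libraries with the most EIIIA inclusion, KO 5 and WT 4, were also the 2 with the most Acta2, and KO 4 was lowest in both.

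**Figure D3:**
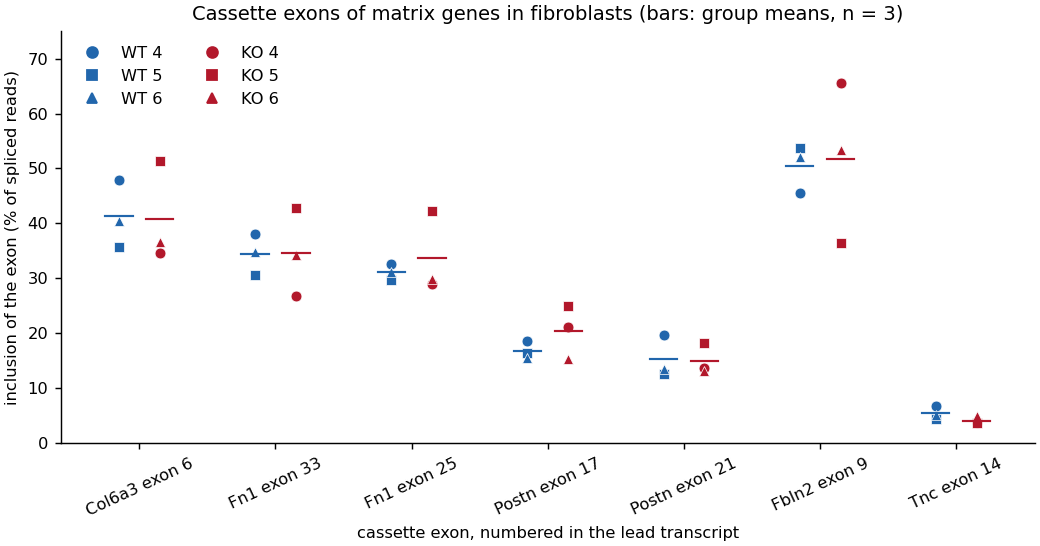
Points are the percent inclusion of 7 cassette exons in each of the 6 fibroblast libraries, with a bar at the mean of 3 libraries. KO 4 and KO 5 lie on opposite sides of the WT libraries for both Fn1 exons and for Fbln2 exon 9, and the group means of these exons lie close together.

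Across cell types the set was highest in the fibroblasts. All 36 genes were higher in WT MEF than in WT progenitors by edgeR's quasi-likelihood test with Benjamini-Hochberg adjustment, with a median log2 difference of 12.43, where 38.9% of 19544 genes were called higher, 68.4% were called in either direction and the median of all genes was 0.17. Genes of the set that are near 0 in blood cells entered this test through their level in MEF, so the count is a description. DESeq2 called 35 and gave no adjusted p for Thbs1. Every gene stood at or above 10 CPM on average in WT MEF, but only 2 did so in WT CMP, 1 in WT GMP and 2 in WT MEP. Mmp14, which encodes a membrane-anchored collagenase, was the smallest difference at 3.73 and the only gene of the set at over 40 CPM in every progenitor library. Timp2, Loxl3, Timp3 and Cnn1 followed with 6.49, 6.84, 7.58 and 7.67. The fibroblasts came from embryos and were grown in culture, so cell type, stage and culture cannot be told apart.

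In the progenitors, loss of Zrsr2 gave no called gene of the set. Of 32 genes tested, 0 were called in CMP, GMP and MEP by edgeR's quasi-likelihood test with Benjamini-Hochberg adjustment and by DESeq2, and 0, 1 and 1 had an unadjusted edgeR p under 0.05. Over all genes 0.0228%, 0.0171% and 0.0456% were called in the 3 cell types, and 5.92%, 2.55% and 4.41% had an unadjusted p under 0.05. The 2 low p-values were in Col1a1 in GMP, at 0, 0.0672 and 0.0236 CPM in the KO and 2.99, 0.87996 and 0 CPM in the WT libraries, and in Fbn1 in MEP. The Col1a1 values were 0, 4 and 2 counts in KO and 150, 50 and 0 counts in WT GMP. They were summed over 50 listed introns, and 1 read can count at several, so few reads may underlie them. Fbn1 read 3.92, 1.25 and 2.46 CPM in KO and 0.579, 0.334 and 0.759 CPM in WT MEP. Its log2 change was 2.15 (SE 0.63, adjusted p = 0.518) by edgeR, and Col1a1 in GMP had an adjusted p = 1.0. The Fbn1 values were 245, 75 and 165 counts in KO and 38, 22 and 50 counts in WT MEP. They were summed over 63 listed introns, so few reads may underlie them too.

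Mmp14 in CMP read 103, 68.5 and 41.4 CPM in KO libraries 1, 2 and 3 and 63.6, 75.8 and 63.02 CPM in WT libraries 1, 2 and 3. In GMP it read 48.5, 75.8 and 44.7 CPM in the KO and 70.5, 60.8 and 64.02 CPM in the WT libraries. In MEP it read 112, 97.005 and 94.5 CPM in the KO and 85.9, 121 and 86.7 CPM in the WT libraries. The genotypes overlapped in all 3 cell types. Retention could be tested for 19 introns of Mmp14, Col5a1 and Loxl3 in the progenitors, and 0 were called in any of them (background 0.00659%, 0.00824% and 0.00494% in CMP, GMP and MEP). At an unadjusted edgeR p under 0.05 there were 3, 1 and 0 of the 19, against 6.15%, 2.66% and 4.0% of all introns. The smallest unadjusted p was that of intron 2 of Mmp14 (chr14:54435894-54436137) in CMP, at 0.216 ± 0.0998% in KO and 2.04 ± 1.43% in WT (SD, n = 3), from 4 and 54 exon-intron reads in all (adjusted p = 0.344, edgeR).

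The WT progenitor types did differ in the set. Col5a1, the collagen V chain, was the clearest: it read 31.6, 29.6 and 34.7 CPM in WT MEP, 5.42, 2.94 and 7.94 CPM in WT CMP and 0.519, 0.282 and 0.201 CPM in WT GMP, with no overlap between the types. The KO progenitors had the same order, at 28.2, 27.7 and 35.8 CPM in MEP, 6.17, 3.702 and 3.86 CPM in CMP and 0.334, 1.59 and 0.165 CPM in GMP. By edgeR's quasi-likelihood test with Benjamini-Hochberg adjustment, the log2 difference of Col5a1 was 6.58 (SE 0.66, adjusted p = 3.73e-07) for MEP against GMP, 2.70 (SE 0.52, adjusted p = 4.16e-04) for MEP against CMP and -3.88 (SE 0.62, adjusted p = 2.05e-04) for GMP against CMP. The last of these lost its call (adjusted p = 0.457) when the median intron stood for the gene in place of the sum.

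The head-to-head genes Col4a1 and Col4a2, which share a promoter region on chromosome 8, were highest in CMP. Col4a1 read 11.6, 9.96 and 11.6 CPM in WT CMP, 1.297, 0.739 and 1.63 CPM in WT GMP and 0.183, 0.228 and 1.701 CPM in WT MEP. Col4a2 read 8.54, 8.51 and 7.11 CPM in WT CMP, 2.85, 5.86 and 2.37 CPM in WT GMP and 1.799, 0.365 and 1.72 CPM in WT MEP. For both genes CMP did not overlap with either other type. Timp3, an inhibitor that stays bound to the matrix, read 2.77, 3.94 and 2.695 CPM in WT CMP, 0.1397, 0.422 and 0.986 CPM in WT GMP and 0.244, 0.334 and 0.137 CPM in WT MEP. Markers of megakaryocytes, 7 in all, summed to 814 to 1155 CPM in WT CMP, 136 to 198 CPM in WT GMP and 35.1 to 64.5 CPM in WT MEP. Their part in these differences was not tested.

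In counts, 3 of 32 genes were lower in WT GMP than in WT CMP (Col5a1, Col4a1 and Timp3) and 0 higher, against 24.8% called and 12.3% called lower over all genes. Between WT MEP and WT CMP, 8 were called (46.7% over all genes, 21.2% higher and 25.5% lower): Col5a1 and Mmp14 were higher in MEP, and Timp3, Col4a1, Col4a2, Fbn1, Mmp2 and Fn1 were lower. Between WT MEP and WT GMP, 2 were called (45.8% over all genes), Col5a1 higher and Fbn1 lower in MEP, and the count was 5 without WT MEP 3 and 4 without WT GMP 1. The mouse was then taken as a block, with cell types of the same number read as 1 mouse. In that fit edgeR called 4, 7 and 4 genes in GMP against CMP, MEP against CMP and MEP against GMP. Over all genes it called 24.5%, 46.1% and 45.3% in these comparisons. Timp2 was added to the first (adjusted p = 0.0311) and Timp2 and Mmp2 to the last (adjusted p = 0.0433 and adjusted p = 0.0498).

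Some calls between MEP and CMP were close to the threshold. Mmp14 had a log2 difference of 0.68 (SE 0.25, adjusted p = 0.03597) by edgeR, and lost its call without WT CMP 1 (adjusted p = 0.0852), WT CMP 3 (adjusted p = 0.0902) or WT MEP 2 (adjusted p = 0.179). Mmp2 read 3.39, 3.53 and 5.02 CPM in WT CMP and 0.183, 0 and 0.957 CPM in WT MEP, and lost its call without WT MEP 1 (adjusted p = 0.08402), WT MEP 2 (adjusted p = 0.0553) or WT CMP 3 (adjusted p = 0.0591). Fn1 read 12.2, 6.296 and 3.03 CPM in WT CMP and 2.76, 1.29 and 4.74 CPM in WT MEP. Its log2 difference of -1.16 (SE 0.46, adjusted p = 0.0498) by edgeR lost its call with the mouse as a block (adjusted p = 0.135). Without WT CMP 1, the difference was -0.51 (adjusted p = 0.399), and the call was also lost without WT CMP 2, WT MEP 1 or WT MEP 2.

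The MEP libraries numbered 3 stood apart. WT MEP 3 and KO MEP 3 held 18.1 and 14.5 CPM of Col1a1, where the other 4 MEP libraries held 1.56 to 3.83 CPM. Col3a1 read 7.15 and 4.71 CPM in them and 0 in the other 4, and Lum and Dcn were also above 0 in MEP only in this pair. The fibroblast marker Pdgfra stood at 0.289 and 0.194 CPM there and at or below 0.0608 CPM in the other 4. Of the other fibroblast markers, Dpt, Prrx1 and Twist1 were above 0 in MEP only in 1 or both of this pair. Vim and Pdgfrb went the other way and were lowest in WT MEP 3, at 15.1 and 1.63 CPM. The sum of all 9 fibroblast markers did not set the pair apart. It was lowest in WT MEP 3, at 17.9 CPM, and stood at 26.4 CPM in KO MEP 3, against up to 49.5 CPM in the other 4. Markers of bone marrow stroma, 5 in all, summed to 0.926 and 1.76 CPM in this pair and to 0.0669 to 0.623 CPM in the other 4. Of the pair's sums, Lepr gave 0.304 and 1.31 CPM, and Nes was highest in WT MEP 2, at 0.547 CPM. The part of such cells in the collagen values was not tested. Without both libraries 29 genes of the set were tested, and edgeR called 0 between genotypes in MEP, with 2 at an unadjusted p under 0.05 (5.27% of all genes), 10 between WT MEP and WT CMP (1 higher and 9 lower in MEP) and 6 between WT MEP and WT GMP (1 higher and 5 lower). Over all genes these fits called 0.082%, 40.1% and 40.2%. Thbs1 read 3.17, 2.27 and 2.81 CPM in WT CMP, 0.499, 0.704 and 1.47 CPM in WT GMP and 0, 0.0912 and 3.05 CPM in WT MEP. Without the libraries numbered 3 it was lower in MEP than in CMP (adjusted p = 0.00245, edgeR) and than in GMP (adjusted p = 0.0129), where with all libraries its log2 difference from GMP was 0.25 and not called, and Mmp14 just missed the threshold against CMP (adjusted p = 0.0502).

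**Figure D4:**
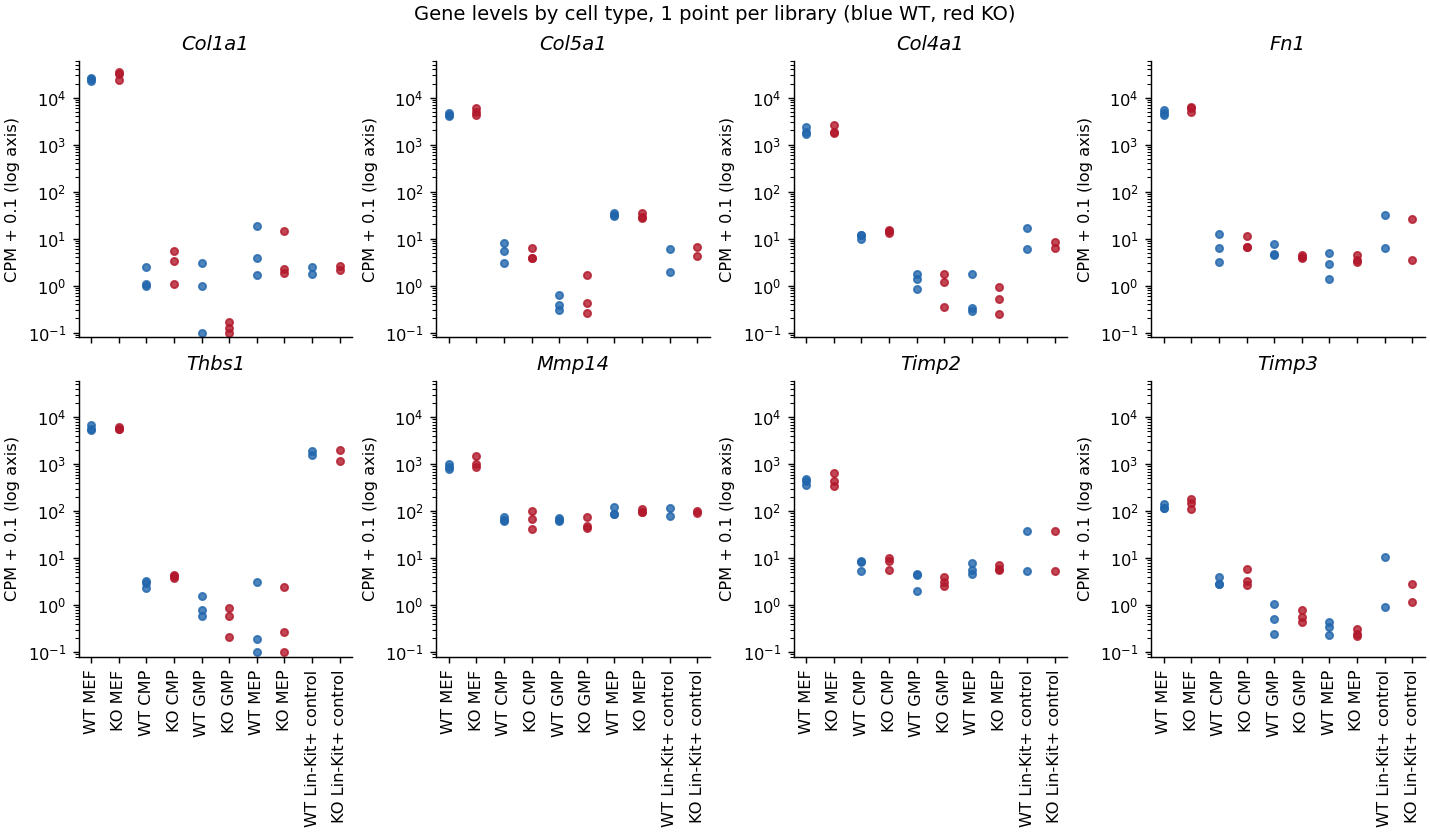
Points are CPM plus 0.1 on a log axis for 8 genes, 1 point per library, in fibroblasts, progenitors and Lin-Kit+ cells with the control hairpin. Mmp14 is present in all cell types, Col5a1 is graded from MEP over CMP to GMP, and Thbs1 is high in fibroblasts and in Lin-Kit+ cells but at or below 4.28 CPM in every progenitor library.

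The cultured Lin-Kit+ cells differed from the sorted progenitors mainly in Thbs1, a thrombospondin that activates latent TGF-beta. It read 1914 and 1590.2 CPM in experiments 1 and 2 of WT cells with the control hairpin and 2037 and 1198 CPM in KO cells with it. All 12 Lin-Kit+ libraries lay between 1198 and 3390 CPM, above every progenitor library and below every MEF library, whose lowest value was 5384 CPM. Culture, transduction and the library kit differ between these cells and the progenitors and cannot be told apart. Macrophage and mast cell markers other than Kit were higher in these libraries too. Kit, which progenitors also express, stood at 174 and 469 CPM in the WT control libraries. It stood at 471 to 491 CPM in WT CMP, 302 to 368 CPM in WT GMP and 332 to 633 CPM in WT MEP. The 8 macrophage markers summed to 7561 to 7630.2 CPM in these WT control libraries, against 199.5 to 336 CPM in WT CMP, 250.0 to 275 CPM in WT GMP and 4.999 to 8.098 CPM in WT MEP. The 6 mast cell and basophil markers summed to 6148 to 10605 CPM, against 706 to 715 CPM in WT CMP, 532 to 661 CPM in WT GMP and 354 to 668 CPM in WT MEP. In at least 1 progenitor library Mrc1, C1qa, C1qb, C1qc, Fcer1a and Mcpt8 were at 0, and the part of these cells in the level of Thbs1 was not tested. Collagen I stayed low, with Col1a1 at 1.66 and 2.38 CPM in WT control cells, and Tnc and Lum were at 0 in all 12 libraries.

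Genotype made no called difference in control-hairpin Lin-Kit+ cells. Of 29 genes tested 0 were called by edgeR and by DESeq2, with 0 at an unadjusted edgeR p under 0.05, against 0 called of all 17828 genes (0.0%) and 0.886% at an unadjusted p under 0.05. Eln stood at 23.3 CPM in 1 library, KO control of experiment 2, and at or below 4.17 CPM in the other 11. The 23.3 CPM were 875 counts over 35 listed introns, where 1 read can count at several, so few reads may underlie them.

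With hairpins against Zrsr1, Mmp14, Timp2 and Loxl3 rose in both genotypes once the experiment was taken into account, and without it edgeR called no gene of the set among those that passed the filter on low counts. The experiments differed strongly: Timp2, an inhibitor that also helps MMP14 activate pro-MMP2, read 5.24 and 38.4 CPM in WT control cells of experiments 1 and 2. Without the experiment in the fit, edgeR's quasi-likelihood test with Benjamini-Hochberg adjustment called 0 of the 29 genes in WT and 0 in KO cells, with 5 and 5 at an unadjusted p under 0.05 (0.0% and 0.0% of all genes called, 7.43% and 7.21% at an unadjusted p under 0.05). Without the experiment, DESeq2 called Col4a1 in WT and Mmp14 in KO cells, and edgeR with no filter on low counts called Col4a1 in WT cells. With the experiment, which the labels name, as a block, edgeR called 5 in WT and 3 in KO cells, against 8.75% and 9.0% of all genes. In WT 4 were higher and 1 lower (4.64% and 4.11% of all genes), and in KO all 3 were higher (4.62%). With the block and 1 hairpin at a time, 3 genes were called with sh1 and 6 with sh10 in WT cells (5.22% and 10.2% of all genes), and 3 and 5 in KO cells (6.21% and 8.81%).

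Mmp14 rose in both genotypes in the fit with the experiment as a block. In WT cells it read 80.2 and 119 CPM with the control hairpin in experiments 1 and 2, 130.5 and 248 CPM with sh1 and 159 and 181 CPM with sh10. In KO cells it read 92.6 and 102 CPM with the control, 187 and 236 CPM with sh1 and 205 and 249 CPM with sh10. Each hairpin library was above the control libraries of its genotype. The log2 change over both hairpins was 0.95 (SE 0.14, adjusted p = 0.00537) in WT and 1.24 (SE 0.15, adjusted p = 0.00191) in KO cells by edgeR with the block, and the adjusted p was 0.614 and 0.483 without it.

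Timp2 rose within each experiment. In experiments 1 and 2 of WT cells it went from 5.24 and 38.4 CPM with the control to 15.8 and 76.3 CPM with sh1 and 23.4 and 108 CPM with sh10. In KO cells the values were 5.31 and 37.2 CPM with the control, 19.4 and 77.3 CPM with sh1 and 26.98 and 166 CPM with sh10. Every hairpin library was above its own control, although hairpin libraries of experiment 1 lay below the control of experiment 2. The log2 change was 1.65 (SE 0.20, adjusted p = 0.00211) in WT and 1.93 (SE 0.20, adjusted p = 0.00127) in KO cells by edgeR with the block, and without the block the adjusted p was 0.922 and 0.823. Loxl3, a lysyl oxidase-like enzyme, was also above its own control in every hairpin library, at lower levels than Timp2. Unlike Timp2, Loxl3 was higher with sh1 than with sh10 in WT cells. In WT cells it read 2.68 and 5.196 CPM with the control, 9.28 and 15.7 CPM with sh1 and 4.94 and 8.28 CPM with sh10, and in KO cells 1.903 and 2.53 CPM with the control, 6.86 and 12.5 CPM with sh1 and 3.84 and 13.9 CPM with sh10. Its log2 change was 1.34 in WT and 2.04 in KO cells (adjusted p = 0.0356 and adjusted p = 0.00832 by edgeR with the block, adjusted p = 0.755 and adjusted p = 0.556 without it).

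**Figure D5:**
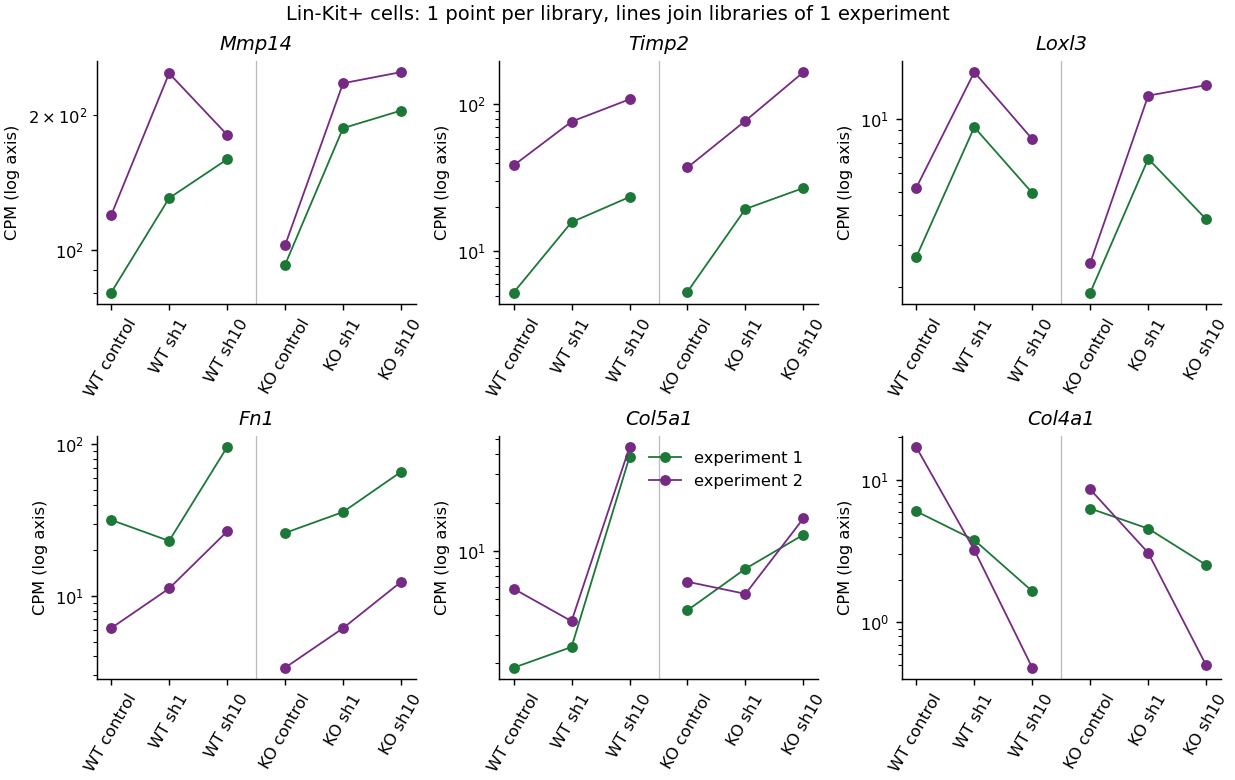
Points are CPM on a log axis in each Lin-Kit+ library for 6 genes, with lines joining the control, sh1 and sh10 libraries of 1 experiment and genotype. Mmp14, Timp2 and Loxl3 lie above their own control in all 8 hairpin libraries, Col4a1 lies below it in all 8, and Col5a1 is highest with sh10.

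Col5a1 separated the hairpins. In WT cells it read 1.87 and 5.82 CPM with the control, 2.52 and 3.65 CPM with sh1 and 38.5 and 44.3 CPM with sh10, so only the sh10 libraries stood above both controls. In KO cells the values were 4.26 and 6.42 CPM with the control, 7.75 and 5.397 CPM with sh1 and 12.6 and 15.96 CPM with sh10. The direct test of sh10 against sh1 in WT cells gave a log2 difference of 3.72 (SE 0.41, adjusted p = 0.0014996) by edgeR with the experiment as a block and an adjusted p of 0.0832 without it. In KO cells that difference was 1.08 (adjusted p = 0.198, edgeR with the block). Over all genes the hairpins differed for 6.11% in WT and 1.87% in KO cells with the block, and for 3 and 0 genes of the set (4 in KO at an unadjusted p under 0.05, with 15.3% of all genes). Fn1 and Thbs1 also passed the sh10 against sh1 test in WT cells with the block, at log2 differences of 1.53 and 0.59 (adjusted p = 0.0334 and adjusted p = 0.0398, edgeR). Whether the response to a hairpin differed between the genotypes was not tested.

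Col4a1 was the gene that fell. In WT cells it read 6.02 and 16.97 CPM with the control, 3.79 and 3.22 CPM with sh1 and 1.66 and 0.481 CPM with sh10, a log2 change of -2.60 (SE 0.62, adjusted p = 0.0317) by edgeR with the block. In KO cells it read 6.299 and 8.58 CPM with the control, 4.55 and 3.08 CPM with sh1 and 2.53 and 0.4996 CPM with sh10, a log2 change of -1.69 (adjusted p = 0.132, edgeR with the block). Every hairpin library was below its own control in both genotypes. Fn1 read 31.7 and 6.13 CPM with the control, 23.1 and 11.2 CPM with sh1 and 95.9 and 26.6 CPM with sh10 in WT cells and just missed the threshold over both hairpins with the block (adjusted p = 0.0507 in WT and adjusted p = 0.0522 in KO, edgeR).

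Markers of other blood cells also differed in level between control and hairpin libraries. The 8 macrophage markers, all of them above 0 in all 12 libraries, summed to 7561 to 7630.2 CPM in WT and 8568 to 8725 CPM in KO control libraries, and to 9259 to 12054 CPM in the WT and 12772 to 14757 CPM in the KO hairpin libraries. All 8 had positive fitted changes in both genotypes. The 7 megakaryocyte markers summed to 783 to 1302 CPM in the WT control libraries, 1073 to 1168 CPM with sh1 and 470.1 to 493 CPM with sh10, and to 787 to 1408, 1141 to 1302 and 714 to 785 CPM in KO cells. The 6 mast cell and basophil markers, all above 0 in the 12 libraries, summed to 6148 to 10605 CPM in the WT control libraries, 7513 to 11002 CPM with sh1 and 3137 to 3429.9 CPM with sh10, and in KO cells to 6422 to 10713 CPM with the control, 7367 to 12548 CPM with sh1 and 5587 to 6104 CPM with sh10. The 6 neutrophil markers, also above 0 in all 12, summed to 6648 to 7041 CPM in the WT control libraries, 4264 to 5721 CPM with sh1 and 10476 to 18082 CPM with sh10, and in KO cells to 6096 to 7133 CPM with the control, 5277 to 5812 CPM with sh1 and 8181 to 12468 CPM with sh10. With sh10 the megakaryocyte and mast cell sums lay below, and the neutrophil sums above, the control libraries of the same genotype. The megakaryocyte sum with sh10 in KO experiment 1, at 785 CPM, was nearly level with its own control at 787 CPM. Single markers also went the other way. The megakaryocyte marker Vwf rose there from 19.8 to 33.0 CPM, and fell from 52.0 to 42.7 CPM in KO experiment 2. The neutrophil markers Mpo and Elane were lower with sh10 than in their own controls in both genotypes. Mcpt8, of the mast cell and basophil list, rose from 587 and 1203 CPM with the control to 1271 and 1574 CPM with sh10 in KO cells. Over both hairpins, 4 neutrophil markers had positive and 2 negative fitted changes in each genotype. The part of any of these in the changes of Mmp14, Timp2, Loxl3, Col5a1 and Col4a1 was not tested.

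In the blood cells EIIIB of fibronectin was skipped in nearly every read. In the 12 Lin-Kit+ libraries together, 228 of 228 reads at the EIIIB position skipped the exon, which allows an inclusion of up to 1.32%. In the 18 progenitor libraries, 110 of 111 did so. EIIIA was included in part, at 22.7% of 257.5 reads (the mean over the flanking introns) in the Lin-Kit+ and 17.1% of 129 reads in the progenitor libraries, against group means of 34.6% in KO and 34.5% in WT MEF. EIIIB inclusion in the 6 MEF libraries was 29.0 to 42.3%. Counts in single blood libraries were too low for a test, and these limits cover counting error only. A read that jumped a longer stretch of Fn1 also counted as skipping either exon, and the share of such reads was not measured. The inclusion values in blood cells and the limit of 1.32% may therefore be too low.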

How the data were processed

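Per the submitters' processing notes the reads were placed on mm10. The sources used here name no aligner and no counting tool. Per the file headers, the authors deposited for each of 36 libraries, over the same 219945 introns, counts of exon-intron reads at both ends and of spliced reads, a fraction of intron bases covered, which was not used, and the percent of missplicing (MSI), which equals the share of exon-intron reads after spliced reads are weighted by 2. All introns matched GENCODE M21. Spliced counts were summed per gene. The members and gene lists were chosen with earlier results of these data known. Genes were tested with edgeR 4.0.16 in R 4.3.3 (TMM, filterByExpr, quasi-likelihood test, Benjamini-Hochberg over all genes, threshold 0.05), with DESeq2 1.42.0 as an alternative. Fits covered the 6 MEF, the 18 progenitor, the 12 Lin-Kit+ or all 24 TruSeq libraries, with 1 coefficient per group. Intron retention and junction use were tested with diffSpliceDGE, with effect sizes from limma 3.58.1 and a pseudocount of 0.5. The tests were checked on simulated data, where the retention test made false calls well above its nominal rate and the tests of genes and junction use made close to it.

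A spliced read was counted at every listed intron inside its gap: in the 36 libraries 11143 to 14531 nested pairs of introns had counts, and the longer intron had more in 0 of them. Inclusion of an exon was therefore computed as the mean of its flanking introns minus the skipping intron, over that mean, in place of the formula first planned. Because a read whose gap held several introns added a count at each, a low gene sum can rest on few reads. CPM were not rescaled by TMM. Named genes were the 12 with the smallest p in MEF, those called elsewhere (up to 6 per comparison) and the 8 highest in WT blood cells; others were added after their values were seen. Same-numbered libraries were compared by the correlation of their deviations from group means over genes. It was 0.246, 0.173 and 0.159 in CMP and 0.369, 0.295 and 0.316 in MEP, above the limit of 0.1, and 0.727 for the experiments, which the labels name. Progenitor types were taken to share mice by number. Between WT types the correlation was 0.108 to 0.321 for GMP and CMP, 0.0711 to 0.142 for MEP and CMP and 0.0856 to 0.116 for MEP and GMP. The libraries numbered 2 thus fell under the limit of 0.1 in the last 2 comparisons, and the mouse block was kept as an alternative. Alternatives were another normalization, no filter, the median intron, library sizes without the members, blocks, DESeq2, other sets of samples and leaving out libraries. With 2 or 3 libraries per group, and intervals or limits covering counting error only, small differences are below reach.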

Additional observations from a re-analysis of the deposited data

How the results depend on the processing

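No gene of the set that edgeR called with all libraries turned sign under an alternative run for that comparison. Among genes not called, signs did turn: in MEF 14 of the 36 did so when 1 library was left out and 0 under the other alternatives, while the median stayed between 0.16 and 0.33. Thbs1 in WT MEP against WT GMP went from 0.25, not called, to a called -4.20 without both MEP libraries numbered 3. The median change of the set, which carries no test, turned sign in several blood cell comparisons. Without WT MEP 3 it went from -0.20 to 1.54 for the genotypes in MEP, from 0.10 to -1.50 for WT MEP against WT CMP, from 0.96 to -0.80 for WT MEP against WT GMP and from 0.27 to -0.32 for the MEF minus the progenitor effect. Without KO MEP 1 or KO MEP 2 the MEP median was 0.03 and 0.06. For WT MEP against WT CMP it was -0.16 with the median intron, -0.10 with the mouse as a block and -1.71 without both MEP libraries numbered 3, and for WT MEP against WT GMP -0.82 without that pair. In Lin-Kit+ cells it went from -0.37 to 0.85 with the median intron and 0.15 without experiment 2 of the WT control for the hairpins in WT, from -0.07 to 0.46 without that library for the genotypes, from 0.41 to -0.02 without experiment 1 of KO sh10 for the hairpins in KO and from -0.22 to 0.02 with the block for sh10 against sh1 in WT. In the blood cells the fits on the median intron tested 11 genes of the set, against 32 and 29 in the main fits. For WT MEP against WT CMP and for the hairpins in WT, 0 of the 11 turned sign, so those medians cover different genes. The counts of genes called in the genotype comparisons in MEF, CMP, GMP, MEP and control Lin-Kit+ cells were 0 under every alternative. Between WT MEP and WT CMP, 8 of 32 genes became 5 of the 11 tested with the median intron as the count. Between WT MEP and WT GMP, 2 genes became 5 with DESeq2, 4 with the mouse as a replicate block and 6 without both MEP libraries numbered 3, and leaving out 1 library gave 2 to 5, the highest without WT MEP 3, with 4 without WT GMP 1. With hairpins in WT cells, 0 became 1 with no filter, 1 with DESeq2, 5 with the experiment as a replicate block, and with that block 3 for sh1 alone and 6 for sh10 alone. In KO cells 0 became 1 with DESeq2, 3 with the block, 3 for sh1 alone and 5 for sh10 alone with the block. The cause of these moves was not tested. For sh10 against sh1, 0 became 3 in WT cells with the block and stayed 0 in KO cells. The block did not change any other count by more than 1.5 times. In MEF the same-numbered libraries correlated at -0.312, 0.743 and 0.342 and in GMP at 0.301, 0.0289 and 0.329, so the numbers were not taken to pair them, and the block left 0 genes of the set called in both. Most genes of the set were near 0 in the blood cells, where 32 (progenitors) and 29 (Lin-Kit+ cells) of the 36 passed the filter on low counts. The libraries numbered 6, those numbered 3 in MEP and single hairpins were examined as alternatives chosen after seeing the data.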
